A study of Mus musculus with 8 samples.

Results

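A set of 10 genes of transsulfuration and glutathione metabolism was followed in cultured mouse CD8+ T cells treated with the hypusination inhibitor GC7 or with vehicle. The set held 10 of the 55536 genes counted: Cbs and Cth for transsulfuration, Slc7a11 for cystine uptake, Gclc, Gclm and Gss for glutathione synthesis, Gsr for its reduction, Ggt1 for its breakdown outside the cell, and Gpx1 and Gpx4 for its use against peroxides. The genes were chosen by symbol on account of their pathway and with the GC7-against-Mock mRNA values of the same libraries already known. Their GC7-against-Mock values are therefore given below as a description, with no p-value, and where members are counted as passing a threshold over all genes the count is a description too. All 10 had counts, and 8 passed the filter on low values, which asked for more than 3 CPM (counts per 1000000 counts of a library) in at least 4 libraries and was passed by 11189 genes in all. Cbs and Slc7a11 did not pass it.

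The study asked what eIF5a, a translation factor that matures when a lysine is turned into hypusine, does in activated T cells. GC7 is a spermidine analogue that blocks DHPS, the enzyme of the first step in making hypusine. The study's authors describe effects of the compound outside this target. The 8 libraries were made for mRNA sequencing from total RNA of 4 Mock and 4 GC7 samples of CD8+ T cells. Cells of both groups came from lymph nodes of C57BL/6 mice aged 5 to 12 weeks carrying the OT-I transgene, a T cell receptor specific for the ovalbumin peptide SIINFEKL, on a Rag-1KO background that lacks other T and B cells. They were grown with 10% FCS and 50 µM 2-mercaptoethanol, a thiol present in both groups, first for 2 days with 100 nM SIINFEKL and then for 2 days with recombinant IL-2 of human sequence at 20 ng/mL. In those last 2 days the GC7 group also received GC7 at 10 µM in the culture. The Mock group received an equal volume of the vehicle, a 10 mM solution of acetic acid, so 10 mM was not its strength in the culture. The methods call the replicates biological, without saying whether each was a separate mouse or a separate culture.

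Cysteine is the scarce building block of glutathione, the main small thiol of animal cells. It is imported as cystine by the exchanger xCT, of which Slc7a11 encodes the transporting chain, or made from methionine through homocysteine by the transsulfuration enzymes CBS and CTH. Glutamate-cysteine ligase and glutathione synthetase then join glutamate, cysteine and glycine, glutathione peroxidases spend glutathione on peroxides, glutathione reductase restores it, and gamma-glutamyltransferase begins its breakdown at the cell surface. Activated T cells are known to depend on this supply to divide.

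The libraries held 17528776 to 25284730 counts each, 20045041 to 25284730 in the Mock group and 17528776 to 23449164 in the GC7 group. Mock replicate 2 and GC7 replicate 3 stood apart from the other libraries of their groups, with a chi-square per gene of at least 32.2 against each of the other Mock libraries and of at least 13.97 against each of the other GC7 libraries. The defining markers of CD8 T cells were high in every library, with Cd3d, Cd3e, Cd3g, Cd8a and Cd8b1 adding up to 2333 to 2865 CPM in Mock and 2365 to 2550 CPM in GC7. Within this sum Cd8a was higher in GC7 (934.7 to 997.8 CPM) than in Mock (676.0 to 739.0 CPM). Cd3d, Cd3e, Cd3g and Cd8b1 were each lower in every GC7 library than in every Mock library. Of 5 B cell markers the sum was 6.98 to 10.1 CPM in Mock and 4.61 to 5.90 CPM in GC7, most of it Cd79b, with Ms4a1 and Pax5 at 0. Of 7 myeloid markers the sum was 8.34 to 10.9 and 5.98 to 9.77 CPM, nearly all of it Cd68, with Siglech at 0. Natural killer, red blood cell, CD4 and stromal marker sums stayed at or below 1.78 CPM in every library, and the platelet markers Pf4 and Ppbp were at 0. These low sums were somewhat lower in GC7 for B cell and stromal markers, and their part in the results below was not tested.

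Across the members, Cth stood out upward and Ggt1 downward, while the genes of glutathione synthesis and the peroxidases differed by much less. Levels are CPM scaled by TMM factors, which adjust each library's total for the composition of its RNA, and errors are SD over the 4 libraries of a group. The log2 fold changes and their standard errors (SE) are from an edgeR fit of GC7 against Mock over all 11189 genes. In these bulk samples, fewer cells of a type and less RNA per cell cannot be told apart.

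**Figure D1:**
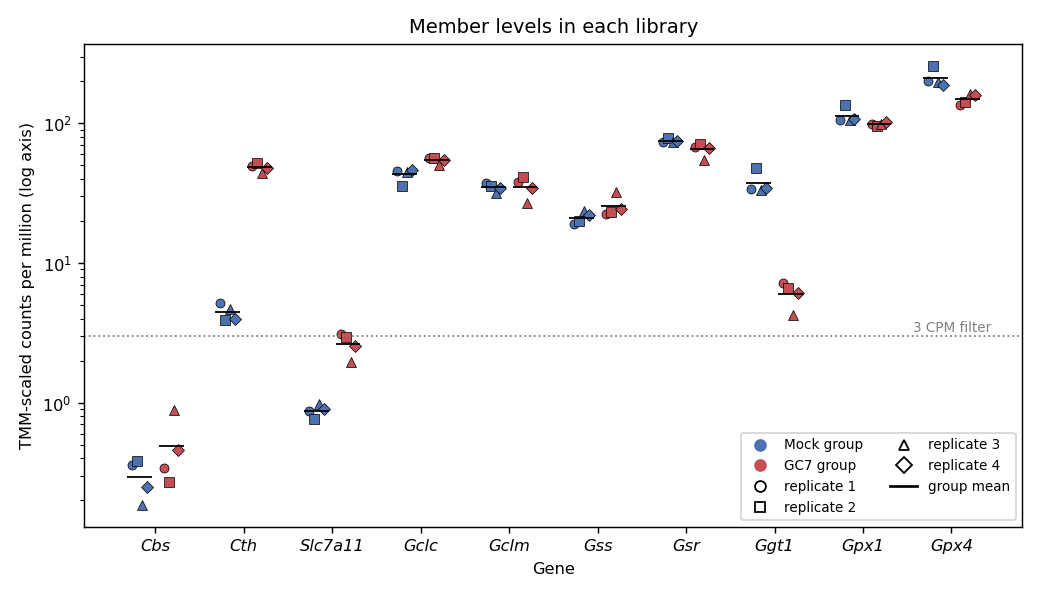
Level of each member in each library, as TMM-scaled CPM on a log axis; blue marks Mock, red marks GC7, the marker shape gives the replicate and the black line the group mean. The GC7 libraries lay above all Mock libraries for Cth, Slc7a11 and Gclc, below all of them for Gsr, Ggt1, Gpx1 and Gpx4, and overlapped them for Cbs, Gclm and Gss. With libraries scaled by their totals, Gsr and Gpx1 overlapped and Gss did not. The dotted line is at 3 CPM, the value of the filter, which was applied before TMM scaling.

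Transsulfuration runs in 2 steps, and only the gene of the second was expressed at a level that could be tested. Cbs (ENSMUSG00000024039, GRCm38 chr17:31608894-31637238, minus strand), whose product condenses homocysteine with serine to cystathionine, had 7, 9, 4 and 5 counts in the Mock libraries and 7, 6, 16 and 11 counts in the GC7 libraries. The group means were 0.293 ± 0.0917 and 0.489 ± 0.277 CPM (SD, n = 4). The groups overlapped, and the highest library was GC7 replicate 3, without which the log2 ratio of the means, GC7 over Mock, dropped from 0.74 to 0.28. At this depth no difference in Cbs could be detected. A stretch of 244 bases of Cbs is 91.4% identical to a transcript of Sin3b (log2 fold change -0.30, SE 0.0751), so the few counts of Cbs are uncertain as well.

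Cth (ENSMUSG00000028179, chr3:157894248-157925077, minus strand) encodes cystathionine gamma-lyase, which splits cystathionine to release cysteine. Its count was 101, 92, 101 and 80 in the Mock libraries and 1031, 1155, 797 and 1154 in the GC7 libraries. In scaled terms these were 5.15, 3.89, 4.68 and 3.99 CPM against 49.9, 52.3, 44.2 and 47.9 CPM. Every GC7 library was far above every Mock library, and the spread within each group was small beside the gap. The means were 4.43 ± 0.597 and 48.6 ± 3.41 CPM (SD, n = 4), a ratio of 10.98 and a log2 fold change of 3.46 (SE 0.101), and over all alternative settings the log2 fold change stayed between 3.39 and 3.55.

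Slc7a11 (ENSMUSG00000027737, chr3:49892526-50443614, minus strand), the cystine-importing chain of xCT, was counted in small numbers. It had 17, 18, 21 and 18 counts in the Mock libraries and 64, 65, 35 and 61 in the GC7 libraries. The scaled levels were 0.867, 0.761, 0.974 and 0.897 CPM in Mock and 3.10, 2.94, 1.94 and 2.53 CPM in GC7. All 4 GC7 libraries were above all 4 Mock libraries, with GC7 replicate 3 the lowest of its group. The means were 0.875 ± 0.0880 and 2.63 ± 0.516 CPM (SD, n = 4), a ratio of 3.01. Under edgeR's own looser filter, which kept the gene, its log2 fold change was 1.59 (SE 0.215). Stretches of 481 to 585 bases of its annotated transcripts are over 90% identical to alpha-tubulin transcripts, among them Tuba1a, Tuba1b, Tuba1c and 5 pseudogenes that passed the filter, so its counts are uncertain. The log2 fold changes of those 8 genes ran from -0.63 (Tuba1a) to 0.14 (Tuba1b).

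The start of Slc7a11 is shown because it is the only promoter among those given for the members that holds the word TGATGNAA, a form of the CCAAT-enhancer-binding protein and ATF composite element that ATF4 is known to bind. The sequence is RefSeq's for GRCm38.p6, chr3:50443564-50443863, minus strand, and runs from 250 bases before the annotated start to 50 after it, with the matches in capitals.

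Slc7a11 promoter: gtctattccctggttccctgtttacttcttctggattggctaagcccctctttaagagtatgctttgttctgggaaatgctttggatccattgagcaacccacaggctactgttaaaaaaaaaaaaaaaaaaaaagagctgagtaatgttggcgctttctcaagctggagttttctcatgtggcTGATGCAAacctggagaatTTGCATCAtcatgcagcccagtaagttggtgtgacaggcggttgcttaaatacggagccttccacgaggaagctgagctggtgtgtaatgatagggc

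The word was found 66 to 59 bases before the start as TGATGCAA and, on the other strand, 47 to 40 bases before it as TTGCATCA, and the 2 matches did not overlap. Searched on both strands, TGATGNAA was present in 1304 of 32851 mouse promoters of the same length, or 3.97%. A promoter was given for 7 of the 10 members, 13 promoters in all, and those of Cbs, Gclm, Gss, Ggt1, Gpx1 and Gpx4 held no such word in this window. None was given for Cth, Gclc and Gsr, so these were not searched for either word. TGACNNNGC, the core of the antioxidant response element that NRF2 is known to bind, was present in 4071 of the 32851 promoters (12.4%). Among the 7 members searched it was found once in the promoter of Gclm, beginning 134 bases before the start, and once in each of 3 of the 4 promoters of Ggt1. These matches are descriptions of letters and not of bound sites.

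Glutathione synthesis was described by 3 genes, and only Gclc had groups that did not overlap. Gclc (ENSMUSG00000032350, chr9:77754535-77794485, plus strand), the catalytic subunit of glutamate-cysteine ligase and the rate-limiting enzyme of the pathway, was at 45.6, 35.6, 44.9 and 46.2 CPM in Mock and 56.5, 56.3, 50.1 and 54.96 CPM in GC7. Each GC7 library was above each Mock library, and Mock replicate 2 lay well below the rest of its group. The means were 43.1 ± 5.0 and 54.5 ± 2.98 CPM (SD, n = 4), with a log2 fold change of 0.34 (SE 0.0866), which was 0.25 without Mock replicate 2.

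Gclm (ENSMUSG00000028124, chr3:122245557-122270732, plus strand), the regulatory subunit of the same ligase, was at 37.7, 35.5, 32.0 and 34.5 CPM in Mock and 37.9, 41.1, 26.7 and 34.5 CPM in GC7. The groups overlapped completely, with both the highest and the lowest library in GC7. Its log2 fold change was 0.01 (SE 0.114) and lay on either side of 0 under the alternatives, from -0.08 to 0.12. Within each library the level of Gclc per kilobase of exon was 2.07 ± 0.295 times that of Gclm in Mock (range 1.67 to 2.35) and 2.64 ± 0.362 times in GC7 (range 2.29 to 3.14, SD, n = 4), so the ranges of this ratio overlapped. The exon length was that of all annotated exons of a gene, expressed or not, so the size of this ratio depends on the annotation too. Gclm shares 296 exon bases with Gm17494 on the opposite strand, which had 62 to 114 counts.

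Gss (ENSMUSG00000027610, chr2:155563181-155592810, minus strand), glutathione synthetase, which adds glycine, was at 18.9, 20.1, 23.4 and 22.0 CPM in Mock and 22.4, 23.3, 32.3 and 24.5 CPM in GC7. GC7 replicate 3 was the highest library, and the 2 lowest GC7 libraries lay within the Mock range, whereas with libraries scaled by their totals all GC7 libraries were above all Mock libraries. The log2 fold change was 0.28 (SE 0.117), and without GC7 replicate 3 it was 0.15. Gss shares 395 exon bases with Acss2 on the opposite strand, and the strand setting of the counting is not given in the sources used here. Acss2, an acetyl-CoA synthetase, was at 35.1 ± 0.709 CPM in Mock and 9.41 ± 1.59 CPM in GC7 (SD, n = 4), and the part of shared reads in the Gss values was not tested.

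Gsr (ENSMUSG00000031584, chr8:33652523-33698163, plus strand), glutathione reductase, which uses NADPH to restore glutathione, was at 73.7, 78.1, 73.6 and 74.9 CPM in Mock and 67.8, 70.8, 55.1 and 66.6 CPM in GC7. All GC7 libraries were below all Mock libraries, and GC7 replicate 3 was the lowest. The log2 fold change was -0.21 (SE 0.0768), -0.13 without GC7 replicate 3 and -0.11 when libraries were scaled by their totals alone, and with that scaling the groups overlapped.

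Ggt1 (ENSMUSG00000006345, chr10:75561604-75586200, plus strand), gamma-glutamyltransferase, which cleaves extracellular glutathione so that its cysteine can be taken up, had the largest downward difference of the members. Its counts were 661, 1126, 719 and 692 in Mock and 148, 146, 76 and 147 in GC7. The scaled levels were 33.7, 47.6, 33.3 and 34.5 CPM against 7.17, 6.61, 4.22 and 6.11 CPM. Every GC7 library was well below every Mock library, with Mock replicate 2 the highest of all and GC7 replicate 3 the lowest. The means were 37.3 ± 6.90 and 6.03 ± 1.28 CPM (SD, n = 4), so that Mock was 6.19 times GC7. The log2 fold change was -2.62 (SE 0.159) and stayed between -2.71 and -2.48 over all alternatives.

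**Figure D2:**
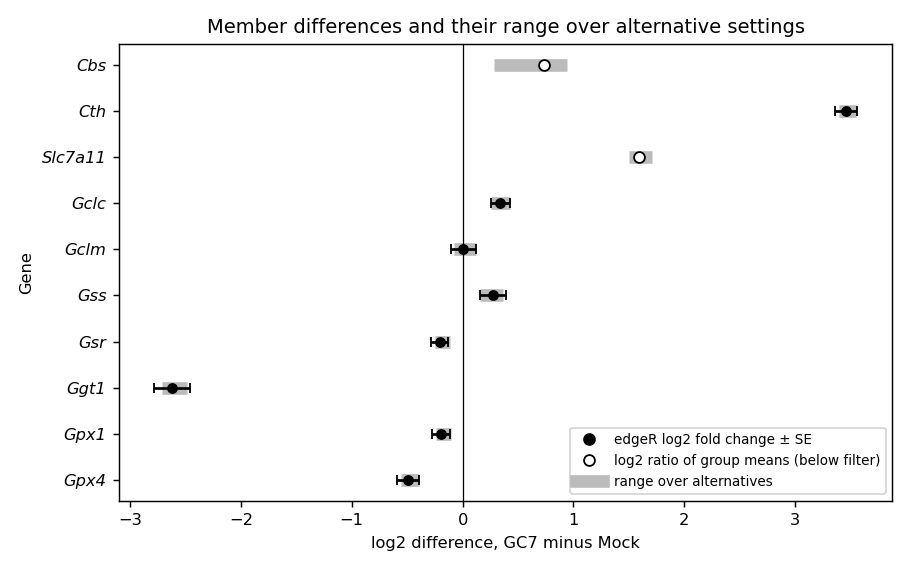
Difference of each member between GC7 and Mock on the log2 scale, as the edgeR log2 fold change with its SE (filled) or, for the genes below the filter, the log2 ratio of the group means (open), with the range over the alternative settings in grey. Cth was at 3.46, Slc7a11 at 1.59 and Ggt1 at -2.62, and the other tested members lay between -0.49 and 0.34.

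The 2 peroxidases are selenoproteins, in which a TGA codon inside the reading frame is read as selenocysteine, the residue of the active site. These codons are shown because they mark what the 2 genes share beyond their use of glutathione. The reference sequence around each, from spliced transcripts annotated on GRCm38, is given with the codon in capitals. The codon lies in a coding exon of Gpx1 at chr9:108339451-108339453 (plus strand, codon 47) and of Gpx4 at chr10:80054737-80054739 (plus strand, codon 73 of the transcript ENSMUST00000105372).

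Gpx1: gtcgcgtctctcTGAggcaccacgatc
Gpx4: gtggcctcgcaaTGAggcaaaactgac

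Gpx1 (ENSMUSG00000063856, chr9:108338903-108340343, plus strand), which reduces hydrogen peroxide and soluble hydroperoxides, was at 106.1, 135.4, 105.9 and 106.7 CPM in Mock and 98.4, 96.5, 99.7 and 101.7 CPM in GC7. The GC7 libraries were all below the Mock libraries, by a small margin apart from Mock replicate 2. The means were 113.5 ± 14.6 and 99.1 ± 2.19 CPM (SD, n = 4), with a log2 fold change of -0.20 (SE 0.0814). It was -0.11 without Mock replicate 2 and -0.10 with libraries scaled by their totals, where the groups overlapped.

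Gpx4 (ENSMUSG00000075706, chr10:80047166-80056439, plus strand), which reduces lipid hydroperoxides in membranes and so holds back ferroptosis, was at 199.8, 258.1, 199.6 and 189.0 CPM in Mock and 136.4, 142.1, 163.5 and 159.3 CPM in GC7. The groups did not overlap, and Mock replicate 2 was the highest library. The means were 211.6 ± 31.4 and 150.3 ± 13.1 CPM (SD, n = 4), with a log2 fold change of -0.49 (SE 0.0990), which was -0.39 without Mock replicate 2. Gpx4-ps2, a transcribed pseudogene 99.7% identical to Gpx4 over 762 bases, had 320 to 746 counts, and the split of reads between them is uncertain. Gpx4-ps2 made up 9.72% of their summed level in Mock and 10.5% in GC7, and its own log2 fold change was -0.39 (SE 0.153, adjusted p = 0.0453). Summed with Gpx4 it gave 234.7 ± 37.2 CPM in Mock and 168.0 ± 15.1 CPM in GC7 (SD, n = 4). Per kilobase of exon, Gpx4 was 1.56 ± 0.0514 times Gpx1 in Mock and 1.27 ± 0.0926 times in GC7 (SD, n = 4), and the ranges of this ratio, 1.48 to 1.59 and 1.16 to 1.37, did not overlap.

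Set in order of level per kilobase of exon, the members kept most of their places but for Cth and Ggt1. The length took in all annotated exons of a gene, expressed or not, so the order between genes depends on the annotation too. In Mock the order ran from Gpx4 at 122.7 CPM per kilobase, through Gpx1 at 78.8, Gsr at 27.3, Gclc at 11.4, Ggt1 at 10.9, Gclm at 5.55, Gss at 3.57 and Cth at 1.59, to Slc7a11 at 0.0628 and Cbs at 0.0392. In GC7 it ran from Gpx4 at 87.2, through Gpx1 at 68.8, Gsr at 23.6, Cth at 17.4, Gclc at 14.5, Gclm at 5.57, Gss at 4.33 and Ggt1 at 1.77, to Slc7a11 at 0.189 and Cbs at 0.0653. Cth thus went from rank 8 to rank 4, and Ggt1 from rank 5 to rank 8. Neighbours overlapped between libraries for Gclc and Ggt1 in Mock and for Gclm and Gss in GC7.

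**Figure D3:**
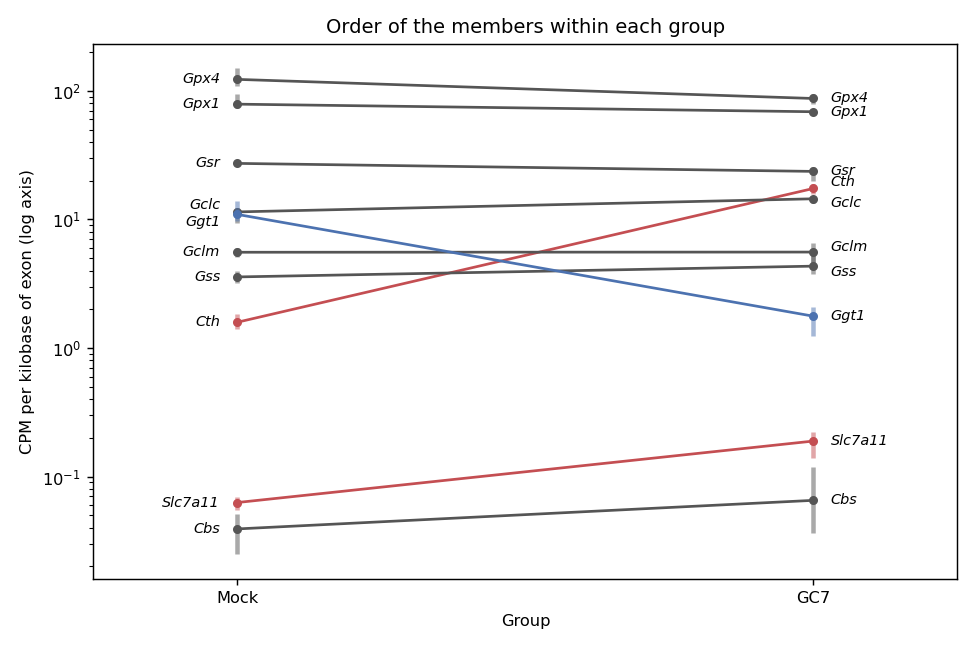
Mean CPM per kilobase of exon of each member in Mock and GC7 on a log axis, with the range over 4 libraries as a vertical bar and a line joining the 2 means. The lines of Cth, from 1.59 to 17.4, and of Ggt1, from 10.9 to 1.77, crossed, and those of the peroxidases stayed on top.

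By an adjusted p (Benjamini-Hochberg over 11189 genes) under 0.01 alone, 2 of the 8 tested members were higher in GC7, Cth and Gclc, where 23% of all tested genes were. Gclc lost this call when any of Mock replicate 3 or GC7 replicates 1, 2 and 4 was left out. Another 2, Ggt1 and Gpx4, were lower, where 23.5% of all tested genes were. With a change of over 2-fold as well, the criterion the study used for reduced mRNAs, Cth was higher and Ggt1 was lower, beside 3.17% and 5.31% of all tested genes. Of the 10 members, 3 had every GC7 library above every Mock library and 4 had every GC7 library below, beside 28.1% and 27.5% of the tested genes (with libraries scaled by their totals, Gss joined those above, and Gsr and Gpx1 overlapped). The median log2 fold change was -0.09 over the 8 tested members and 0.02 over all tested genes. As the members were chosen with these values known, nothing is read from the counts.

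The wider pathway was described by 111 further genes grouped by role and not by how they moved. The list was drawn up with earlier results of these data known, so its shares are a description. Of the 111 genes, 110 were found in the annotation and 71 passed the filter. Of those 71, 20 rose (28.2%) and 11 fell (15.5%) at an adjusted p under 0.01, beside the 23% and 23.5% of all tested genes given above. Their median log2 fold change was 0.06. Over 2-fold, Mat2a, Chac1 and Abcc4 rose and Ethe1, Glrx, Gstm1 and Mgst3 fell. Chac1 and Gstm1 passed the filter only through the group in which they were higher, GC7 for Chac1 and Mock for Gstm1. Sqor, called higher, passed it with every GC7 library above 3 CPM but in Mock replicate 3 alone. All adjusted p-values in the next paragraphs are from edgeR's quasi-likelihood test. The counts by role given there are of few genes each and stand beside the same 23% and 23.5% of all tested genes. Nothing is read from them.

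Upstream of transsulfuration, 3 of 7 tested genes of the methionine cycle rose and none of the 7 fell. Mat2a, which makes S-adenosylmethionine from methionine, was at 102.9, 95.2, 101.1 and 105.1 CPM in Mock and 214.0, 215.5, 195.4 and 205.2 CPM in GC7, with all GC7 libraries far above all Mock libraries (log2 fold change 1.04, SE 0.0597, adjusted p = 3.32e-08). Mtr, methionine synthase, which returns homocysteine to methionine, rose from 39.7 ± 7.24 to 57.4 ± 2.42 CPM (log2 fold change 0.53, SE 0.114, adjusted p = 0.00158). Mtrr, the reductase that keeps this synthase active, rose from 23.5 ± 2.48 to 32.9 ± 4.33 CPM (log2 fold change 0.48, SE 0.105, adjusted p = 0.00170). Ahcy, which releases homocysteine, did not pass the test at 536.2 ± 31.4 and 506.2 ± 21.9 CPM (adjusted p = 0.292), and its counts are uncertain because Gm4737 is 99.7% identical to it over 2083 bases.

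Downstream of cysteine, the 6 tested genes of cysteine use and sulfide oxidation were divided, 2 higher and 2 lower. Ethe1, the mitochondrial persulfide dioxygenase, fell from 21.0, 28.7, 22.9 and 24.8 CPM in Mock to 10.3, 10.2, 10.99 and 10.97 CPM in GC7 (log2 fold change -1.20, SE 0.102, adjusted p = 9.57e-07). The GC7 libraries lay close together, below all Mock libraries. Mpst, which forms persulfide from mercaptopyruvate, fell from 40.0 ± 3.42 to 28.7 ± 2.64 CPM (log2 fold change -0.48, SE 0.0855, adjusted p = 0.000423). Sqor, which oxidises sulfide in mitochondria, rose from 3.02 ± 0.455 to 4.82 ± 0.907 CPM (log2 fold change 0.67, SE 0.167, adjusted p = 0.00436). The call was lost when any of Mock replicates 1 and 4 and GC7 replicates 3 and 4 was left out. Its Mock libraries were at 2.59 to 3.66 CPM, all but replicate 3 under the filter. Its GC7 libraries were at 3.78 to 5.94 CPM, so Sqor passed the filter through GC7.

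Among transporters of cystine, cysteine and glutamate, 2 of 5 tested genes rose and none of the 5 fell. Slc3a2, the chain that carries Slc7a11 and other amino acid exchangers to the membrane, was at 292.7 ± 10.4 CPM in Mock and 310.3 ± 38.7 CPM in GC7 and did not pass the test (log2 fold change 0.08, SE 0.0855, adjusted p = 0.414). Slc1a4, an exchanger of neutral amino acids such as alanine, serine and cysteine, rose from 19.6 ± 2.26 to 38.4 ± 5.87 CPM (log2 fold change 0.98, SE 0.117, adjusted p = 1.73e-05). Slc1a5, the glutamine exchanger of the same family, was at 344.5, 364.5, 341.0 and 377.4 CPM in Mock and 486.2, 484.1, 404.0 and 487.3 CPM in GC7. GC7 replicate 3 stood below the other GC7 libraries but above all Mock libraries (log2 fold change 0.38, SE 0.0743, adjusted p = 0.000791).

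In the breakdown of glutathione, 2 of 7 tested genes rose and 1 fell. Chac1, which cleaves glutathione inside the cell, rose from 2.41 ± 0.478 to 4.84 ± 1.17 CPM (log2 fold change 1.01, SE 0.199, adjusted p = 0.000902), with 1.99 to 2.97 CPM in the Mock libraries, all under the filter, and 3.44 to 6.29 CPM in the GC7 libraries. Ggct, which turns gamma-glutamyl amino acids into oxoproline in the gamma-glutamyl cycle, rose from 8.86 ± 1.77 to 15.8 ± 0.794 CPM (log2 fold change 0.83, SE 0.126, adjusted p = 0.000129). Cndp2, a peptidase that splits cysteinylglycine, fell from 286.2 ± 15.5 to 205.7 ± 8.83 CPM (log2 fold change -0.48, SE 0.0617, adjusted p = 3.49e-05). None of the other gamma-glutamyltransferase genes was called, with Ggt5 and Ggt6 below the filter and Ggt7 at an adjusted p of 0.0105. Ggt7 was called lower under several alternatives, and it shares 197 exon bases with Acss2 on the opposite strand, whose fall is given above for Gss.

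**Figure D4:**
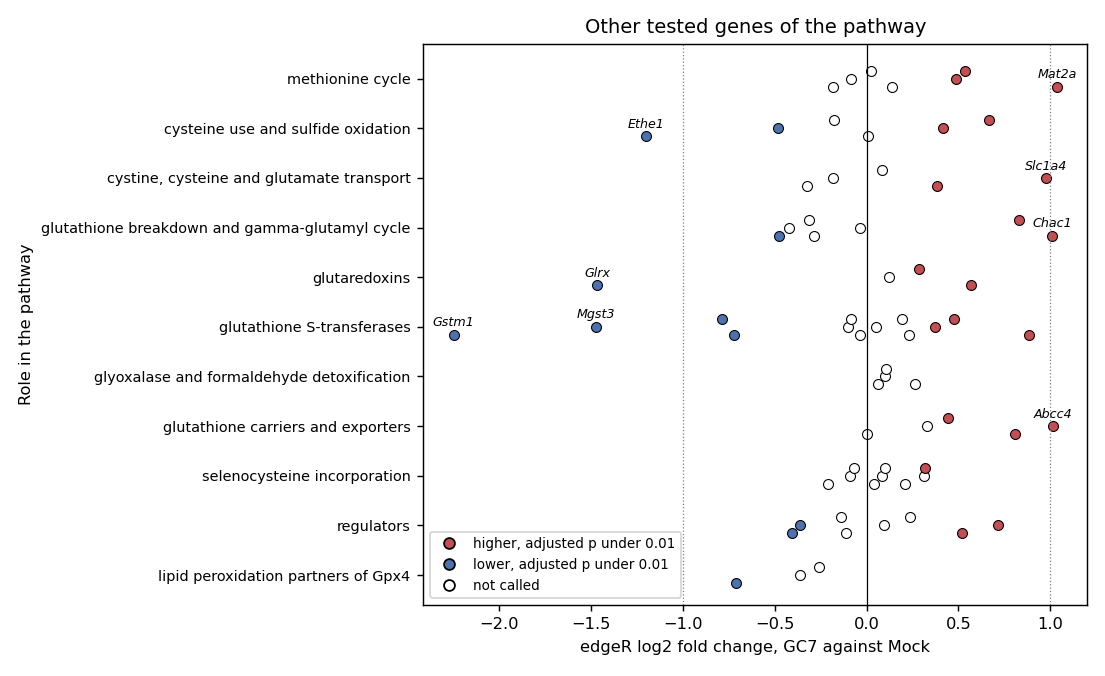
edgeR log2 fold change, GC7 against Mock, of each of the 71 tested genes of the wider pathway, by role; red marks genes higher and blue genes lower at an adjusted p under 0.01, open circles the rest, and dotted lines a 2-fold change. Gstm1 at -2.25, which passed the filter only through Mock, lay farthest down and Mat2a at 1.04 farthest up.

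Enzymes that use glutathione moved in both directions. No other glutathione peroxidase passed the filter, the 6 remaining at or below 1.83 CPM in every library. Of the 4 glutaredoxins, which reduce disulfides with glutathione or carry iron-sulfur clusters, 2 rose and 1 fell. Glrx, the cytosolic enzyme that removes glutathione from proteins, fell from 141.5, 159.6, 145.3 and 143.7 CPM in Mock to 51.7, 51.0, 52.7 and 58.1 CPM in GC7, and the groups were far apart (log2 fold change -1.47, SE 0.0663, adjusted p = 4.35e-09). Glrx3, an iron-sulfur cluster glutaredoxin, rose from 169.7 ± 5.70 to 251.8 ± 28.3 CPM (log2 fold change 0.57, SE 0.0775, adjusted p = 5.20e-05). Glrx5, its mitochondrial counterpart, rose from 59.9 ± 5.53 to 72.8 ± 4.92 CPM (log2 fold change 0.28, SE 0.0776, adjusted p = 0.00747), though the groups overlapped and the call was lost without any 1 of 6 libraries, Mock replicates 1, 3 and 4 and GC7 replicates 1, 2 and 4.

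Of 13 tested glutathione S-transferases, which join glutathione to electrophiles, 3 rose and 4 fell. Gstm1 fell from 3.93, 6.05, 6.44 and 5.83 CPM in Mock to 0.920, 0.951, 1.499 and 1.33 CPM in GC7, so that all GC7 libraries were below all Mock libraries at a level under the filter (log2 fold change -2.25, SE 0.209, adjusted p = 2.16e-06). Mgst3, a microsomal member, fell from 9.89 ± 1.61 to 3.60 ± 0.695 CPM (log2 fold change -1.47, SE 0.160, adjusted p = 8.00e-06). Gstt1 rose from 16.4 ± 0.345 to 30.3 ± 2.31 CPM (log2 fold change 0.88, SE 0.0756, adjusted p = 1.02e-06). Gstp1, the most abundant of the family at 183.3 ± 24.9 and 170.6 ± 8.64 CPM, did not pass the test (adjusted p = 0.326), and its counts are uncertain because Gstp2 is 98.2% identical to it over 707 bases. None of the 4 genes of glyoxalase and formaldehyde detoxification was called.

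Of 5 carriers and exporters of glutathione 3 rose. Slc25a39, which imports glutathione into mitochondria, rose from 77.2 ± 8.55 to 105.0 ± 4.68 CPM (log2 fold change 0.44, SE 0.0782, adjusted p = 0.000393). The exporters Abcc4 and Abcc5 rose as well, Abcc4 from 9.07 ± 1.58 to 18.2 ± 4.43 CPM (log2 fold change 1.02, SE 0.177, adjusted p = 0.000365) and Abcc5 from 18.4 ± 2.88 to 32.2 ± 2.90 CPM (log2 fold change 0.81, SE 0.109, adjusted p = 5.06e-05). Abcc1, the exporter best known for glutathione conjugates, was at 97.2 ± 13.5 and 97.3 ± 3.50 CPM (adjusted p = 0.991).

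Genes that serve the peroxidases themselves mostly did not pass the test. Of 9 genes for selenocysteine incorporation, 1 rose, Sephs2, which makes the selenium donor, from 41.3 ± 5.59 to 51.6 ± 2.65 CPM (log2 fold change 0.32, SE 0.0902, adjusted p = 0.00865). The Sephs2 groups overlapped, and its call was lost with the replicate block, with another scaling (RLE) and without any 1 of 6 libraries, Mock replicates 1, 3 and 4 and GC7 replicates 1, 2 and 4. Of the 3 tested genes that work beside Gpx4 in lipid peroxidation, Lpcat3, which loads polyunsaturated fatty acids into phospholipids, fell from 70.3 ± 2.00 to 42.9 ± 4.73 CPM (log2 fold change -0.71, SE 0.0793, adjusted p = 9.72e-06), and it shares 334 exon bases with Emg1 on the opposite strand. Acsl4, which activates those fatty acids, was at 137.0 ± 16.2 and 114.7 ± 5.82 CPM (adjusted p = 0.0187), and was called lower with DESeq2, without a filter and without Mock replicate 2.

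Of the 8 regulators, 2 rose and 2 fell. Nfe2l2, which encodes NRF2, the activator of Gclc, Gclm, Gsr and Slc7a11, was at 17.6, 16.7, 15.2 and 16.3 CPM in Mock and 26.4, 28.7, 26.5 and 26.4 CPM in GC7, with the groups well apart (log2 fold change 0.72, SE 0.0738, adjusted p = 5.18e-06). Nfe2l1, its relative known for proteasome genes, rose from 124.5 ± 6.12 to 178.4 ± 11.2 CPM (log2 fold change 0.52, SE 0.0646, adjusted p = 2.53e-05). Keap1, the adaptor that marks NRF2 for degradation, fell from 74.1, 72.5, 74.8 and 73.8 CPM in Mock to 56.0, 58.4, 51.7 and 57.0 CPM in GC7 (log2 fold change -0.40, SE 0.0590, adjusted p = 9.26e-05), and it shares 510 exon bases with the antisense gene Gm16754. Atf4, the amino acid response factor known to act on Cth, Slc7a11 and Chac1, was at 388.1 ± 29.7 and 358.6 ± 18.5 CPM and did not pass the test (log2 fold change -0.11, SE 0.0699, adjusted p = 0.180). Bach1, a repressor at antioxidant response elements, did not pass it either (log2 fold change -0.14, SE 0.0951, adjusted p = 0.220), but was called lower without Mock replicate 2.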

How the data were processed

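Libraries made from total RNA of 4 Mock and 4 GC7 samples were sequenced by what the paper calls mRNA-seq. They were grouped by the submitters' labels. The deposited files hold raw counts per gene, which the authors made by trimming with Cutadapt, aligning to GRCm38 (Ensembl 96 annotation) with STAR and counting with featureCounts. The strand setting and the treatment of reads that map to several places are not given in the sources used here. Unassigned reads are not part of the files, and all 55536 gene IDs were found in the annotation.

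Genes above 3 CPM in 4 or more libraries (52.6 counts in the smallest library) were fitted in edgeR 4.0.16 under R 4.3.3, with TMM factors, group as the only term and the quasi-likelihood test, and p-values were adjusted by Benjamini-Hochberg over 11189 genes. The biological coefficient of variation was 0.0918. Genes were called at an adjusted p under 0.01, and also with over 2-fold change. p-values measure the spread between these samples, which the methods call biological replicates without naming separate mice or cultures. Library totals of 17528776 to 25284730 limit the precision of genes with few counts, such as Cbs. Replicates differed beyond counting noise in every pair, with a chi-square per gene of 2.60 to 35.6, so each library counted as 1 sample.

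The members, the wider list, its roles and the naming rule were chosen with earlier results of these data known. Named were all 10 members, their near-identical copies that passed the filter, in each role up to 3 called genes with the largest absolute log2 fold change, and always Atf4, Nfe2l2, Keap1, Bach1 and Slc3a2. Ahcy, Gstp1, Abcc1, Acsl4, Ggt5, Ggt6 and Ggt7 were added after their values were seen. Copies were transcripts with at least 90% identity over at least 200 bases in BLAST 2.17.0. Sequences were read from RefSeq promoters and, around the selenocysteine codons, from spliced transcripts annotated on GRCm38. Alternatives were RLE factors, library totals, DESeq2 1.42.0, no filter, edgeR's filterByExpr, the replicate number as a block and leaving out each library. Summing Gpx4 with Gpx4-ps2, and the overlap of groups under library totals, were added after seeing the data. The fits were tested on simulated data.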

Additional observations from a re-analysis of the deposited data

Results flagged for a closer look

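In 6 of 76 groups examined (10 members and the other genes chosen by the naming rule, in Mock and in GC7), 1 library stood apart from the other 3, with a gap to its nearest neighbour, as a share of the range of the group, above Dixon's critical value for 4 values. Chance gives about 1 in 20 such groups, or 3.8 of 76. In 4 of them it was Mock replicate 2, which was lowest for Gclc at 35.6 CPM (gap 0.883 of the range) and highest for Ggt1 at 47.6 CPM (0.919), for Gpx1 at 135.4 CPM (0.972) and for Gpx4 at 258.1 CPM (0.843). Without this library the log2 fold change was 0.25 for Gclc, -2.48 for Ggt1, -0.11 for Gpx1 and -0.39 for Gpx4, each of the same sign as with it. The others were GC7 replicate 3, lowest for Slc1a5 at 404.0 CPM (0.962), and GC7 replicate 2, highest for Nfe2l2 at 28.7 CPM (0.976), a spread of 26.4 to 28.7 CPM in all.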

How the results depend on the processing

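No called member or called gene named from the wider pathway changed sign under any alternative run that tested it. Among all genes, the 594 lower and 355 higher by over 2-fold became 1189 and 773 without a filter and 1007 and 605 with edgeR's filterByExpr, which tested more genes. Scaling by library totals moved the median log2 fold change of all genes from 0.02 to 0.11 and the share of called genes that were higher from 49.5% to 61.9%. Deviations from the group means correlated at 0.272, -0.116, 0.202 and -0.183 between same-numbered samples and at -0.31 to 0.416 between differently numbered ones. Whether a shared number means a shared mouse or culture is not given, and so few samples cannot settle it. With the replicate block, 2382 genes were higher and 2485 lower, and of the wider pathway 1 gene in place of 3 was higher by over 2-fold. Leaving out 1 library gave 1 to 4 such genes, with 1 without Mock replicate 2, GC7 replicate 1 or GC7 replicate 2. The filter still asked for 4 libraries in those runs. Chac1 was therefore not tested when a GC7 library was left out, nor Gstm1 when a Mock library was. The counts of these runs thus reflect the filter as well as the library left out. Of genes not called, Gclm and Abcc1, both near 0, took either sign, and Ahcy did with library totals. Counts of Cbs and Slc7a11 limit what depth can show for these genes.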

Other observations

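Alox5, the lipoxygenase that starts leukotriene synthesis and was listed beside Gpx4 for lipid peroxidation, did not pass the filter and was picked here after its values were seen. It had 1, 3, 3 and 2 counts in the Mock libraries and 42, 36, 36 and 42 counts in the GC7 libraries. The scaled levels were 0.104 ± 0.0391 CPM in Mock and 1.85 ± 0.196 CPM in GC7 (SD, n = 4), with all GC7 libraries above all Mock libraries.

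Outside the genes named above, 4 glutathione S-transferases and other genes of the wider pathway passed the test. Gstp3 fell from 36.1 ± 4.11 to 21.9 ± 3.11 CPM (log2 fold change -0.72, SE 0.109, adjusted p = 0.000126) and Mgst2 from 115.5 ± 15.2 to 67.1 ± 11.0 CPM (log2 fold change -0.79, SE 0.117, adjusted p = 0.000109). Gsto1 rose from 34.9 ± 1.57 to 48.5 ± 1.08 CPM (log2 fold change 0.48, SE 0.0613, adjusted p = 3.34e-05) and Gstt3 from 7.86 ± 0.629 to 10.2 ± 0.766 CPM (log2 fold change 0.37, SE 0.103, adjusted p = 0.00741), a call lost with the replicate block, without a filter and when any 1 library but GC7 replicate 2 was left out. Ado, a thiol dioxygenase, rose from 20.2 ± 0.456 to 27.0 ± 2.49 CPM (log2 fold change 0.42, SE 0.0796, adjusted p = 0.000696), and Mafg, a small MAF partner of NRF2, fell from 65.8 ± 4.11 to 51.1 ± 5.06 CPM (log2 fold change -0.36, SE 0.0802, adjusted p = 0.00199), a call lost with library totals. Mafg shares 124 exon bases with Sirt7. These genes were picked after their values were seen. All adjusted p-values are from edgeR's quasi-likelihood test over 11189 genes.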
